A study of Homo sapiens with 32 samples.

Results

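ATP5D and ALDH4A1 are nuclear genes whose proteins work inside mitochondria, and they moved in opposite directions in tamoxifen-treated breast cancer xenografts. Relative to the pool of control tumors, ATP5D was lower in each of 16 treated tumors. ALDH4A1 was higher in the 15 treated tumors read in both dye orientations, whereas its sign in 1 tumor of day 4, read in a single orientation, depended on a correction for the dye. The probes were chosen by their symbol, as every array probe that the gene list of the study calls ATP5D or ALDH4A1, which gave 3 probes of 9912: 1 for ATP5D (156800_A) and 2 for ALDH4A1 (32923_A and 44289_A). That list names 333 probes of 253 genes, and the other 9579 probes are unnamed here. The study selected that list on the ratios of these same tumors to the control pool, so the levels, the differences between days and the correlations below are descriptions with no test. ATP5D and ALDH4A1 were also set side by side because their directions are opposite. That opposition is therefore the rule of choice and not a finding.

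The tumors were grown in female nu/nu mice, which lack mature T cells, from the cell line ZR-75-1, which was derived from a human breast cancer and expresses the estrogen receptor. The treated mice received a pellet with 2.5 mg of tamoxifen for release across 60 days, which competes with estrogen for that receptor, together with estradiol (E2), and the control mice received E2 alone. Treated tumors were taken on day 1 (4 tumors from 2 mice), day 2 (2 tumors from 2 mice), day 4 (4 tumors from 3 mice), day 7 (4 tumors from 3 mice) and day 14 (2 tumors from 2 mice), where tumors whose labels share an animal number were taken as tumors of 1 mouse. The RNA of each was compared on 32 cDNA arrays of 2 colours, in both dye orientations, with 1 pool of RNA from E2-only xenografts of days 0, 1, 2 and 4. The pool is a single sample without its own replicates, and it mixes days, so that no treated day has a separate control of that day. Treatment and time are therefore not fully separated on any day. They cannot be told apart on days 7 and 14, from which the pool holds no tumor. All tumors come from 1 cell line, and the vessels and stroma of the mouse host were not separated from the human cells. In such bulk RNA, fewer cells of a type and less RNA per cell cannot be told apart.

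ATP5D, which RefSeq now calls ATP5F1D, encodes the delta subunit of the rotating central stalk of ATP synthase, the enzyme that makes ATP from the proton gradient across the inner mitochondrial membrane. ALDH4A1 encodes the matrix dehydrogenase that oxidizes pyrroline-5-carboxylate to glutamate, the last step of proline breakdown, whose first step is carried out by proline dehydrogenase (PRODH). Electrons from proline pass into the respiratory chain that drives ATP synthase, so that both proteins act in energy metabolism of the same organelle but in different complexes. In the reference build GRCh38.p14, ATP5F1D lies on chromosome 19 between bases 1241751 and 1244825, and ALDH4A1 lies on chromosome 1 between bases 18871430 and 18902555. Where within the genes the cDNA clones lie is not given in the sources used here.

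The estrogen receptor, the target of tamoxifen, binds a palindrome with the core GGTCA on one arm and TGACC on the other, and both ALDH4A1 start regions of RefSeq are shown because they differ in how often that core occurs. Each runs over 300 bases (250 before the start and 50 after it) on the minus strand of chromosome 1 in GRCh38.p14, start 1 at chr1:18902506-18902805 and start 2 at chr1:18890842-18891141. Capitals mark GGTCA and TGACC, which are each other's reverse complement, so that both strands are covered.
ALDH4A1 start 1: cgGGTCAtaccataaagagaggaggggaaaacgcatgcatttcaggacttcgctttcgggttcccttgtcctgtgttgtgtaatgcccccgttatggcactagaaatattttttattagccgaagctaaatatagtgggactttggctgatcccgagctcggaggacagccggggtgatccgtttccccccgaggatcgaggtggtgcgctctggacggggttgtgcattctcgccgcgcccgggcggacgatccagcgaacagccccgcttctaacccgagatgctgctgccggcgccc
ALDH4A1 start 2: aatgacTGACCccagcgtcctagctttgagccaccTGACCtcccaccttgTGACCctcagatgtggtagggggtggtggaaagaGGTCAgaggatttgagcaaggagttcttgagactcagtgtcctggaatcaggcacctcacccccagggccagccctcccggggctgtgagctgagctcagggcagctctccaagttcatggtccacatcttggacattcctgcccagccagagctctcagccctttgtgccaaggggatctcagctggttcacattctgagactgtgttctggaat
The region of start 1 holds 1 such core and that of start 2 holds 4 (1 GGTCA and 3 TGACC). Of 35116 RefSeq promoter entries of the same length, 37.4% hold at least 1 and 0.416% hold at least 4. The full palindrome with 3 free bases between the arms is in neither region, and 0.057% of all entries hold it. A match of letters is not a binding site, and no binding was measured here. The promoter entries used hold none for ATP5F1D, so ATP5D and ALDH4A1 cannot be compared for this core.

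The values below are log2 ratios of treated tumor over pool, so that a negative value is lower in the treated tumor. The scanner columns do not name their dyes. The direction used is that of the value table and the gene list of the study, in which the protein stains of TFF3 and IGFBP5 run the same way, and if the columns followed the channel numbers of the labels instead, every sign would turn. ATP5D was at -1.25, -0.70, -1.05 and -1.37 in the tumors of day 1, and at -1.04 and -1.52 in those of day 2. On day 4 it was at -1.04, -1.19, -0.93 and -1.09, and on day 7 at -0.77, -1.29, -0.87 and -0.99. The tumors of day 14 had -1.29 and -1.92. Every tumor was thus below the pool, and the ranges of days 1, 2 and 7 overlapped with that of day 14, whereas the range of day 4 did not.

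The day means of ATP5D were -1.09 ± 0.29 on day 1 (SD, n = 4), -1.28 ± 0.34 on day 2 (n = 2), -1.06 ± 0.11 on day 4 (n = 4), -0.98 ± 0.23 on day 7 (n = 4) and -1.60 ± 0.44 on day 14 (n = 2). As linear ratios these are 2.13-fold, 2.43-fold, 2.09-fold, 1.97-fold and 3.04-fold lower in treated tumors than in the pool. The step between day 7 and day 14, a fall of 0.62 on the log2 scale, was larger than the SD of either day, but both days overlapped through the tumor at -1.29 in each. Ordered from the lowest of 9912 probes, ATP5D stood 10th on day 1, 9th on day 2, 17th on day 4, 13th on day 7 and 19th on day 14. It was therefore among the probes farthest below the pool at every day, including the first. From day 7 to day 14 its mean fell but its place moved from 13th to 19th. Other probes thus also lay farther below the pool on day 14, and the step was not particular to ATP5D.

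ALDH4A1 ran the other way. Probe 32923_A was at 0.16, 0.38, 0.57 and 0.46 on day 1, at 0.38 and 0.65 on day 2, at 0.57, 0.83, 0.43 and 0.30 on day 4, at 0.27, 0.59, 0.36 and 0.50 on day 7, and at 0.94 and 1.03 on day 14. Probe 44289_A was at 0.19, 0.41, 0.64 and 0.59 on day 1, at 0.44 and 0.59 on day 2, at 0.71, 0.94, 0.20 and 0.36 on day 4, at 0.30, 0.63, 0.33 and 0.38 on day 7, and at 0.86 and 1.07 on day 14. All 16 tumors were above the pool by both probes before any dye correction of the third tumor of day 4 (given below), and the highest values were those of day 14 and of the second tumor of day 4. The probes followed each other closely over the 16 tumors (Pearson r = 0.93, Spearman rho = 0.88), with a mean difference of 0.014, an SD of 0.098 and a largest difference of 0.23.

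With the probes averaged, ALDH4A1 had day means of 0.42 ± 0.19 on day 1 (SD, n = 4), 0.51 ± 0.15 on day 2 (n = 2), 0.54 ± 0.27 on day 4 (n = 4), 0.42 ± 0.14 on day 7 (n = 4) and 0.97 ± 0.11 on day 14 (n = 2). The treated tumors were thus 1.34-fold, 1.43-fold, 1.46-fold, 1.34-fold and 1.96-fold above the pool. The means of days 1, 2, 4 and 7 differed by less than the spread between tumors and their ranges overlapped. Both tumors of day 14 lay above every tumor of the earlier days, although by probe 44289_A alone day 14 overlapped with day 4. From the highest of 9912 probes, 32923_A stood at place 349 on day 1, 141 on day 2, 46 on day 4, 68 on day 7 and 48 on day 14, and 44289_A at 228, 139, 38, 80 and 54. These places depend on the spread of the other probes as well, and the mean of ALDH4A1 itself was the same on days 1 and 7 (0.42). Neither probe took a higher place on day 14 than on day 4, although the mean of each was higher.

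**Figure D1:**
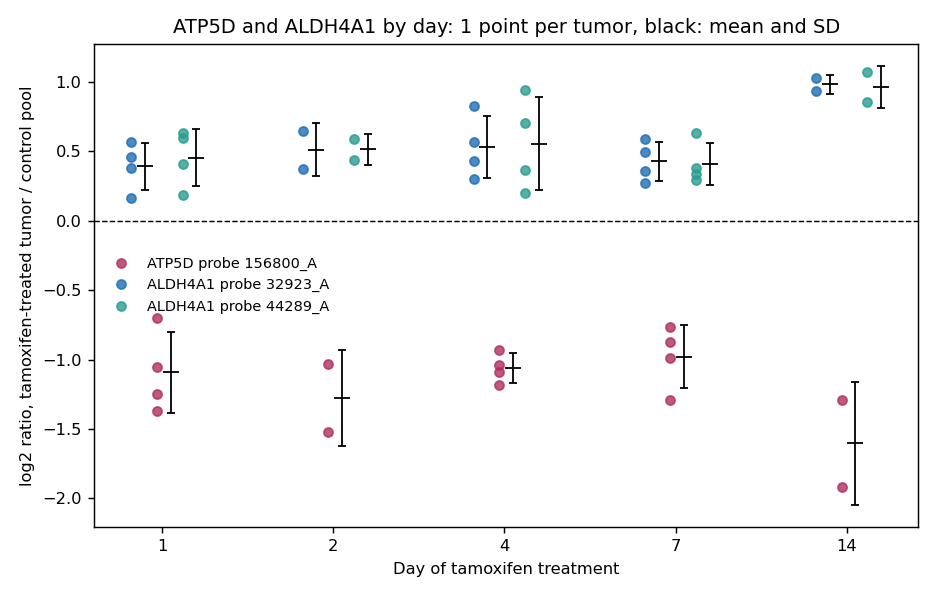
The log2 ratio of treated tumor over pool (y axis) is plotted by day of treatment (x axis, days in order and not to scale) for the ATP5D probe and both ALDH4A1 probes. Each point is 1 tumor and black bars are the mean and SD of the day, and the dashed line is the pool. All ATP5D points lie below the line, down to -1.92 on day 14, and all ALDH4A1 points lie above it, up to 1.07 on day 14.

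Within a tumor, the difference ALDH4A1 minus ATP5D on the log2 scale was 1.52 ± 0.34 on day 1, 1.79 ± 0.49 on day 2, 1.61 ± 0.36 on day 4, 1.40 ± 0.37 on day 7 and 2.58 ± 0.55 on day 14 (SD, n = 4, 2, 4, 4 and 2). Over single tumors it ran from 1.05 to 2.97, and both day 14 tumors (2.19 and 2.97) were above all others, the next being 2.14 on day 2. The tumors with less ATP5D tended to have more ALDH4A1, with r = -0.67 and rho = -0.61 over 16 tumors. Without the 2 tumors of day 14, r was -0.42, and without the 2 tumors farthest from the ATP5D median it was -0.47. As deviations from the day mean, r was -0.45. With 1 mean for each of 12 mice, r was -0.84, and -0.70 as deviations from the day mean. Every ratio shares the pool as its denominator and both genes were read on the same arrays, and 4 mice gave 2 tumors each.

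**Figure D2:**
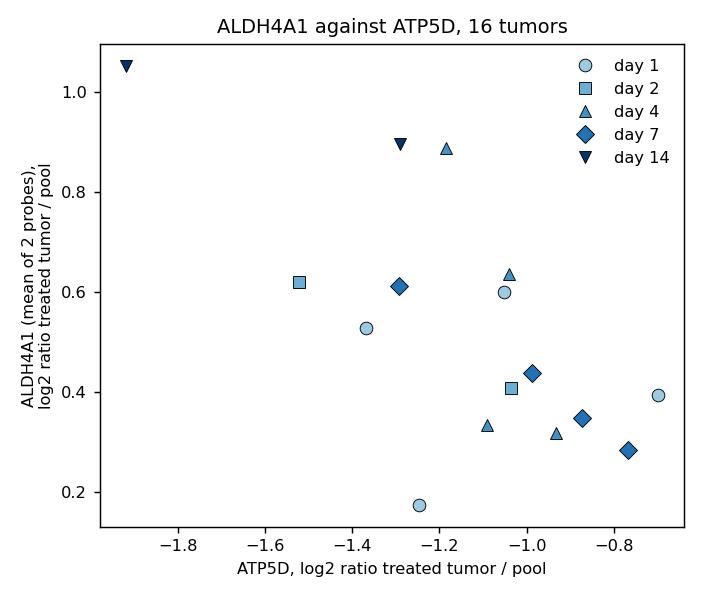
Each point is 1 of the 16 tumors, with the log2 ratio of treated tumor over pool of ATP5D on the x axis and of ALDH4A1 (mean of both probes) on the y axis, and symbols give the day. The tumors of day 14 are the 2 highest for ALDH4A1, and one of them, at -1.92, is the lowest for ATP5D.

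In 4 mice, tumors labelled L and R were both measured. For ATP5D, the tumor labelled R minus the tumor labelled L was 0.55 and -0.32 in the mice of day 1, -0.15 in a mouse of day 4 and -0.11 in a mouse of day 7. For ALDH4A1 the same differences were 0.22, -0.07, 0.25 and 0.09. Neither side was the higher one in all 4 mice for either gene, although R was the higher one in 3 of 4 for ALDH4A1.

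The spots of ATP5D and ALDH4A1 differed in brightness. The ATP5D spot was brighter than 98.8% of all probes, with a median signal of 147 times the local background, and its brightest channel had an intensity of 48895. The ALDH4A1 probes were each brighter than 74.5% of probes or more, with median signals of at least 10.5 times the background, and their dimmest channel was still 2.89 and 3.13 times above it. As an example of the raw intensities, the second tumor of day 14 gave ATP5D 4308 in the tumor channel, against 11245 in the pool channel of the forward array, and 4644 in the tumor channel, against 18692 in the pool channel, with the dyes swapped. For ALDH4A1 probe 32923_A the same arrays gave 1442 in the tumor and 472 in the pool (forward), and 1491 in the tumor and 852 in the pool (swapped). These intensities are not corrected for background or dye, and this tumor has the largest difference between the genes. Over all arrays used, the raw intensity of ATP5D was lower in the tumor than in the pool on 15 of 15 forward and 14 of 14 swapped arrays, by as little as 6629 in the tumor against 6723 in the pool on the swapped array of the other day 14 tumor. That of each ALDH4A1 probe was higher in the tumor on 16 of 16 forward arrays but on only 6 of 15 swapped ones, so that the direction of ALDH4A1 on swapped arrays appeared in part only after normalization.

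The dye effect of each probe, which is the part of its ratio that stays with the channel and not with the tumor, is independent of how the probes were chosen and was therefore tested. It was 0.045 (SE 0.039) for ATP5D on the log2 scale, channel 2 over channel 1, in 13 tumors with both orientations, with an adjusted p of 0.344 in limma. For ALDH4A1 it was 0.29 (SE 0.036, adjusted p = 2.95e-06) by 32923_A and 0.37 (SE 0.038, adjusted p = 3.99e-07) by 44289_A in limma, positive in 15 of 15 tumors by both. Of 9912 probes, 5228 (52.7%) passed this test, with a median size of 0.12. The effect of both ALDH4A1 probes was larger than that of 90.3% and 95.3% of probes, and smaller than the day mean of the same probe on each day, the lowest of which were 0.39 and 0.41.

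Read by orientation, ATP5D was below the pool on 15 of 15 forward arrays (mean -1.09, SD 0.30) and on 14 of 14 swapped ones (mean -1.23, SD 0.33). ALDH4A1 was above the pool on all 16 forward arrays by both probes, with means of 0.80 (SD 0.32) by 32923_A and 0.89 (SD 0.36) by 44289_A. On the 15 swapped arrays it was lower, with means of 0.24 (SD 0.23) and 0.19 (SD 0.25), above the pool on 13 and 12. The average of both orientations removes the dye effect, but it could not do so where an orientation was missing.

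One array decided such a case. The dye-swapped array of the third tumor of day 4 followed the forward array of the second tumor of day 4 (r = 0.98 across probes for the raw channel log ratio) more than its own forward array (r = 0.61), and it was left out. Its labels are not in accord either, since the title calls it replicate 4 whereas its source names the tumor of replicate 3, and it was placed by the source. Read so from the scanner file, it gives ATP5D 1.23 and ALDH4A1 -0.87 and -1.15, the opposite of every other array in ATP5D, and the day 4 mean of ATP5D becomes -0.79. The value table of the study has ATP5D at -1.72 and ALDH4A1 at 0.12 and -0.02 for the same array, with the direction of ATP5D on the other arrays, but its column and the scanner file correlate at only r = 0.37. Lower values of this r occurred among arrays that were kept. They were 0.33 for the swapped array of the first day 2 tumor and 0.22 for the forward array of the fourth day 7 tumor. For the third tumor of day 4, the forward array alone gave 0.43 by 32923_A and 0.20 by 44289_A. With the dye effect of the probe taken off, a correction chosen after seeing the data, it gave 0.14 and -0.17. That ALDH4A1 was above the pool in 16 of 16 tumors therefore rests, for 44289_A, on 1 uncorrected array. With the correction, the day 4 mean of ALDH4A1 was 0.46 in place of 0.54. The day 4 difference ALDH4A1 minus ATP5D was 1.53 in place of 1.61. ATP5D, which also had only 1 orientation in the day 1 tumors at -0.70 and -1.37, stayed at -0.74, -1.32 and -0.98 in its 3 such tumors with the same correction.

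**Figure D3:**
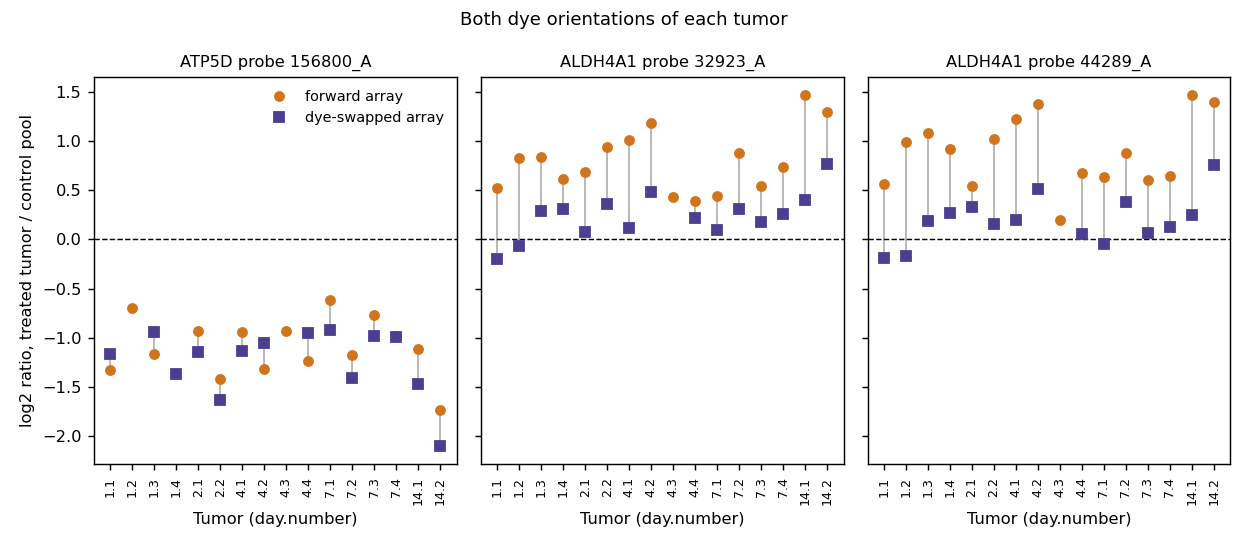
The log2 ratio of treated tumor over pool (y axis) is shown for each tumor (x axis, day and tumor number) on its forward array (circles) and its dye-swapped array (squares), 1 panel per probe, with a grey line between the pair. The squares of ALDH4A1 lie below their circles throughout, some of them under 0, whereas all points of ATP5D lie below 0 whichever way the dyes were placed.

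In the fit over all 5 days (limma, mean of the day means against the pool, mouse as a random block), ATP5D was called lower, as were 1131 of 9912 probes (11.4%), and both ALDH4A1 probes were called higher, as were 1014 (10.2%). Their means of the day means were -1.20 for ATP5D and 0.57 and 0.58 for the ALDH4A1 probes. Of 9865 probes with a value in every tumor, 173 (1.75%) were below the pool in all 16 and 124 (1.26%) above it. The study listed these genes for their change against the same pool in the same tumors, so nothing is read from these calls.

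Other genes of mitochondria were looked up in lists of 187 genes, of which 11 have a named probe, ATP5D and ALDH4A1 included. Of the other 9, 2 were called lower (COX6C and TST), 6 higher (PRODH, OMA1, PPOX, MTCYB, MTND1 and MTND5) and 1, TSPO, was not called, beside 11.4% and 10.2% of all probes. Named probes are those that the study had found to change, so these counts say nothing of the mitochondrial genes without one. ATP5D is the only 1 of 18 listed ATP synthase genes with a named probe, and none of 19 listed genes of the citric acid cycle has one.

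PRODH, which begins the breakdown of proline that ALDH4A1 ends, was at -0.70, -0.33, 0.06 and 0.04 on day 1, and at 0.34 and -0.07 on day 2. On day 4 it was at 0.61, 1.49, 0.13 and 0.00, on day 7 at 0.33, 0.78, 0.52 and 0.52, and on day 14 at 1.14 and 1.10. Its day means were -0.23, 0.14, 0.56, 0.54 and 1.12, so that PRODH was near or below the pool on the first day, when ALDH4A1 was already above it, and stood at a like ratio from day 4 on. The second tumor of day 4 was the highest of its day for both genes, at 1.49 for PRODH and 0.89 for ALDH4A1. PRODH has a pseudogene that a cDNA spot may also bind.

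COX6C, a nuclear-encoded subunit of cytochrome c oxidase at the end of the respiratory chain, ran the same way as ATP5D but less far, with day means of -0.37, -0.22, -0.30, -0.31 and -0.68. It was below the pool in 15 of 16 tumors, and at 0.01 in the first tumor of day 2. It is 1 of 64 listed nuclear genes of the respiratory chain and the only one of them with a named probe.

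The mitochondrially encoded subunits, which are read from the genome of the organelle itself, ran differently from ATP5D. MTND1 and MTND5, subunits of complex I, had day means of 0.38, 0.25, -0.03, -0.05 and 1.05 and of 0.75, 0.30, 0.03, -0.08 and 0.67. MTCYB, the cytochrome b of complex III, had 0.39, 0.20, -0.20, -0.07 and 0.85 by its brightest probe (26128_B). By day mean, all 3 were therefore above the pool on days 1 and 14. On days 4 and 7 their means were closer to it, with tumors on both sides of it on day 4, where MTND1 ran from -0.78 to 0.49 and the third tumor was at -0.78 for MTND1, -0.55 for MTND5 and -0.73 for MTCYB. ATP5D stayed 1.97-fold or more below the pool by day mean on both days. In the second tumor of day 1 they were at -0.20, -0.10 and -0.22, the only tumor of that day below the pool, and it was also the tumor of that day nearest to the pool in ATP5D (-0.70). Another MTCYB probe, 308173_A, was not called, and cDNA spots may also bind nuclear copies of mitochondrial DNA.

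Among other mitochondrial proteins, OMA1, a protease of the inner membrane, was above the pool in 16 of 16 tumors, with day means of 0.38, 0.45, 0.41, 0.34 and 0.98, highest on day 14 as ALDH4A1 was. PPOX, the protoporphyrinogen oxidase of heme synthesis, had 0.29, 0.30, 0.17, 0.24 and 0.60 by its brighter probe. TST, the thiosulfate sulfurtransferase rhodanese, had -0.45, -0.22, -0.33, -0.25 and -0.62. TSPO, a cholesterol-binding protein of the outer membrane, was not called and had -0.05, -0.13, 0.00, -0.04 and -0.73. Of cytosolic energy metabolism, ME1, the cytosolic malic enzyme, and SLC16A1, a carrier of lactate, were below the pool in 16 of 16 tumors and were called lower, whereas GPI and LDHA of glycolysis were not called.

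**Figure D4:**
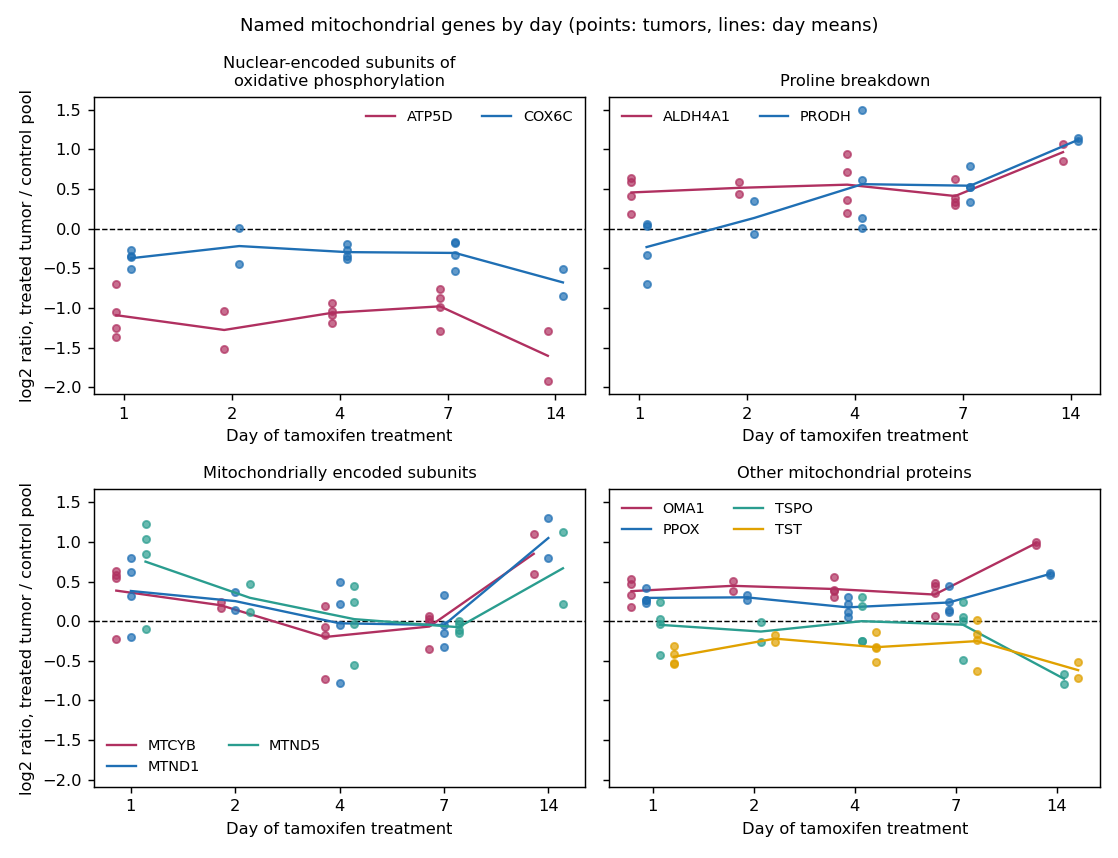
The log2 ratio of treated tumor over pool (y axis) by day of treatment (x axis, not to scale) is plotted for the 11 mitochondrial genes with a named probe, the brightest probe of each. Points are tumors and lines join the day means. The day means of ATP5D and COX6C lie below 0, with 1 tumor of COX6C at 0.01, those of ALDH4A1 and OMA1 lie above it, PRODH moves between -0.23 on day 1 and 1.12 on day 14, and the day means of the mitochondrially encoded genes lie between -0.20 and 0.03 on days 4 and 7.

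The genes whose ratio over the 16 tumors was most like that of ATP5D, among the named probes, were TFF1 (r = 0.86 and 0.84 by its 2 probes), MAPT (0.82), IGF1R (0.80) and EBP (0.77). TFF1 is a secreted protein whose gene is a classical target of the estrogen receptor, MAPT is the microtubule-binding protein tau, IGF1R is the receptor of insulin-like growth factor 1, and EBP is an enzyme of cholesterol synthesis. The most opposite were ABCC5 (-0.88), SELENBP1 (-0.78), C10orf45 (-0.77), PPOX (-0.76) and TMEM23 (-0.76). For ALDH4A1, the most like were MUC1 (0.89), PPAP2C (0.84), ABCC5 (0.83 and 0.80 by 2 probes) and UNG2 (0.82), and the most opposite were CELSR2 (-0.88), PLOD2 (-0.87), RAB31 (-0.85 and -0.84) and HSD17B1 (-0.83). ABCC5, an exporter of the ABC family, thus stood at opposite ends for ATP5D and ALDH4A1. Of the 50 highest among 9865 probes, 22 were named for each gene, and of the 50 lowest, 14 for ATP5D and 27 for ALDH4A1. Of all 9912 probes, 333 are named. The study chose and clustered the named probes on these same tumors, so nothing is read from these counts. These correlations share arrays and pool.

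Markers of cell types were read on the same arrays. All 10 luminal breast epithelial genes have named probes, each at 5.78 times the background or more, with medians over their 15 probes of -0.19, -0.41, -0.28, -0.40 and -0.72 in day order. Of those 15 probes, 10 were called lower and 5 higher, beside 11.4% and 10.2% of all probes. Named probes are those that the study had found to change, so nothing is read from these calls or from those below. Of 9 fibroblast and matrix genes, 4 have named probes (FN1, LGALS1, MGP and IGFBP7), with medians of -0.15, -0.42, -0.06, -0.24 and -0.67, lowest on day 14 as ATP5D was. Of the 5 probes of these genes, 4 were called lower and 0 higher. The 5 erythroid probes and the 5 probes of liver-type secreted proteins were all called lower. The erythroid medians were -0.76, -0.87, -1.12, 0.15 and -1.03 in day order, so that day 7 was above the pool, and those of the liver-type probes were -1.52, -1.64, -1.63, -1.68 and -2.56. The muscle genes MB and MYLK were called higher, with medians of 0.34, 0.37, 0.20, 0.30 and 0.74. The paper names TFF1, TFF3 and AREG as estrogen-response genes, and cites earlier work in which the SERPINA genes of the liver-type list rose with E2. Such markers can therefore change with treatment at the same cell numbers. The host cells are of the mouse, and whether the fibroblast, erythroid and muscle probes read them was not tested. Endothelial, adipocyte and macrophage markers have no named probe, and the part of cell makeup in the values of ATP5D and ALDH4A1 was not tested. The median of all probes lay between -0.005 and 0.007 on every day.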

How the data were processed

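RNA of 16 treated tumors was hybridized against 1 control pool on 32 cDNA arrays. The deposited scanner files hold, for either channel, the intensity of each spot and of its surroundings from the scan of the authors, with no correction. They also hold a spot mark whose meaning the deposited files do not state. Per array, the authors' deposited table gives log2 ratios, which the methods describe as background-corrected, loess-normalized and quantile-normalized in limma (no version given). That table has 9928 probes, of which 9908 are shared with the scanner files, and 665 missing values. It is already turned to tumor over pool in all 32 columns, and was used as an alternative.

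Spots with mark 0 (1 to 393 per array) were dropped, the background was corrected by normexp (offset 50), and arrays were loess-normalized and then quantile-normalized against each other, with limma 3.58.1, statmod 1.5.0 and R 4.3.3. An array's median signal was 2.74 to 8.23 times background. The log ratio was turned by dye orientation and averaged per tumor, and the dye effect was the part that does not turn. Two-sided limma tests used lmFit, duplicateCorrelation over the mouse, eBayes and Benjamini-Hochberg adjustment over all probes at 0.05, and were checked on simulated data. The simulated noise was independent between tumors and arrays, so that check does not cover the mouse block or the shared pool. The label of day 4 replicate 5 is the fourth tumor of day 4 here. On day 14, the swapped array of the first tumor lacks the flank letter that its forward array has. It was paired by its title and animal number. Where nothing says that tumors grew separately, p-values measure the spread between these samples alone.

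Members, gene lists and markers were chosen with earlier results of these data known. Named are the 3 probes, each mitochondrial gene of the lists with a named probe (the brightest stands for a gene), and the 5 named probes with the highest and the lowest r for ATP5D and for ALDH4A1. ME1, SLC16A1, GPI and LDHA, from a list of cytosolic energy metabolism that is not reported here in full, were added after their values were seen. Symbols are those of the study's gene list, positions and promoters those of RefSeq in GRCh38.p14, with 2 entries for ALDH4A1. No column of the authors' own comparisons was used.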

Additional observations from a re-analysis of the deposited data

How the results depend on the processing

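Of 233 values of ATP5D, ALDH4A1 and their difference by day under other settings, 220 moved by less than the SD between tumors, 13 moved by more and 0 changed sign. Many of them could not move further. Leaving out a tumor shifts a day mean by less than that SD whatever its value, and some settings leave a day unchanged. The doubtful array, for example, bears on day 4 alone, and 1 mean per mouse changes nothing on days 1, 2 and 14. The count of 220 therefore overstates how stable the values are. Forward arrays alone gave ALDH4A1 0.79, 0.80, 0.67 and 1.41 on days 1, 2, 7 and 14, and a difference ALDH4A1 minus ATP5D of 1.87 on day 1. Dye-swapped arrays alone gave ALDH4A1 0.054, 0.23, 0.26, 0.17 and 0.54 on the 5 days in order. By construction these settings keep the dye effect. Without background correction, ALDH4A1 was 0.83 on day 14, and the cause was not tested. With the doubtful array of day 4 used as labelled, ATP5D was -0.79 and the difference 1.17 on day 4. The authors' table gave ATP5D below the pool in 31 of 32 columns, the exception being the forward array of day 7 tumor 4 (0.89 there, -0.98 from the scanner file), whose column is the least like its scanner file (r = 0.22). It gave ALDH4A1 above the pool in 29 and 27 of 32 columns.

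Leaving out each tumor in turn gave ATP5D -1.52 to -1.04 on day 2, -1.11 to -1.02 on day 4, -1.05 to -0.88 on day 7 and -1.92 to -1.29 on day 14, with a lowest value of -1.22 on day 1. In day order it gave ALDH4A1 0.37 to 0.51, 0.41 to 0.62, 0.43 to 0.62, 0.36 to 0.47 and 0.90 to 1.05. The probes called lower numbered 807 to 1195 and those called higher 702 to 1108. No paired analysis was possible because tumors of different days share only a number and no test was made between days. Days 2 and 14 rest on 2 tumors each, and the spread of the pool was not measured.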
